A study of Drosophila melanogaster with 30 samples.

Results

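The M28 peptidase genes CG10051, CG10062, CG10073, CG10081, CG30043, CG30047, CG30049 and CG13160, found by their symbols, were followed through the adult midgut of Drosophila melanogaster. They are 8 of the 17488 genes in the deposited tables. The genes were chosen by family with FPKM differences of these libraries in view, and the recorded value behind the choice is the fall of CG30043 in the posterior midgut on the lipid-depleted diet. Each result that uses the posterior lipid-depleted libraries is therefore given below as a description of these genes, with no p-value. Where such a result passed a test threshold, nothing is read from it. Of the 8 genes, 6 had a mean level high enough to be tested, and CG10073 and CG10081 did not.

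M28 peptidases are metallopeptidases that hold a pair of zinc ions in the active site, and most known members remove amino acids from the end of a peptide. In the insect midgut, trypsin-like and other serine endopeptidases cut dietary protein into peptides, exopeptidases trim these, and transporters carry amino acids and small peptides into enterocytes, the absorptive cells of the gut wall. None of the sources used here gives the substrates of the 8 genes. Calling them aminopeptidases rests on their family.

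The study compared dietary lipid and the nuclear receptor Hr96, a sterol-responsive regulator of lipid genes in the fly gut. Poly(A) RNA came from the anterior midgut (subregions a1-3) and the posterior midgut (p1-4) of mated females aged 10 to 12 days and kept with males. Flies of the strain y[1]w[1] were moved as pupae to a control diet, a lipid-depleted diet or a diet with 0.2% cholesterol, which is 4 times the control level. Hr96[1] flies, labelled TI{TI}Hr96[1], and Hr96[2x] flies were kept on the control diet and were compared with y[1]w[1] flies on that diet. With 3 libraries in each of 10 groups there were 30 libraries, each from 30 to 50 dissected regions. Nothing in the labels ties replicates to separate animals or cultures, so a p-value measures only how these samples spread, which may be technical. Beyond the label TI{TI}Hr96[1], the sources used here do not give how either Hr96 strain was made. They do not give its genetic background either, so a difference between strains cannot be assigned to Hr96 alone.

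Values are FPKM (fragment numbers corrected for transcript length and library total), scaled between libraries, and differences are between log2(FPKM + 1) values, a scale that shrinks the changes of genes with low levels. Calls rest on limma with Benjamini-Hochberg adjustment over all 8335 genes tested, at 0.05. Read counts were not used here, and the total depth is unknown; relative depth ran from 0.786 to 1.33 across libraries. The Hr96 transcript itself read 43.4 to 67.9 in the control libraries of both regions, 27.9 to 42.1 in Hr96[1] and 63.7 to 80.3 in Hr96[2x]. The enterocyte genes Myo31DF, nub and Myo61F were above 0 in every library, with medians of 108, 92.6 and 670. A further enterocyte marker, Mur29B, ran from 8.51 to 1627. The summed level of the fat body markers stood at 1631 and 1920 in replicate 1 of the anterior and posterior control groups. In the other control libraries it was 131 to 243, so control replicate 1 stands apart in both regions. Replicate 1 of Hr96[1] also had more of the fat body marker Yp1. It read 162 against 55.5 and 52.9 in the anterior midgut, and 128 against 2.87 and 7.42 in the posterior. In bulk RNA, fewer cells of a type and less RNA per cell cannot be told apart.

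The 8 genes form 2 runs on chromosome arm 2R (BDGP6, dm6). The first run spans 23.3 kb, from 12351793 to 12375081, and holds CG30047 (12351793 to 12355413), CG30049 (12355671 to 12359087), CG30043 (12359436 to 12363165) and CG13160 (12371594 to 12375081). Gaps of 257 and 348 bases separate the first 3 of these genes. The pseudogene CR33013 and CG33012, another M28 gene, lie between CG30043 and CG13160. The second run spans 25.7 kb, from 19363641 to 19389318, and holds CG10051 (19363641 to 19367294), CG10062 (19375313 to 19380174), CG10073 (19380543 to 19384965) and CG10081 (19385923 to 19389318). CG9416, an M28 gene on the minus strand, lies between CG10051 and CG10062 and overlaps the end of CG10051 by 47 bases. CG11961, also of the M28 family, starts the array and ends 516 bases before CG10051. All 8 listed genes lie on the plus strand. The annotated proteins were of like size, at 866 to 881 codons, and 7 of the 8 genes had 10 to 12 exons, while CG10051 had 7. The libraries do not mark strand, so reads from the overlap of CG10051 and CG9416 cannot be told apart. The genes are paralogs, and reads shared between near-identical stretches could have been split between them in the authors' quantification.

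Genes beside each other differed widely in level. In the posterior midgut on the control diet the FPKM, which is per length and so can be compared between genes, ran from 116.7 ± 68.4 for CG10062 and 55.8 ± 38.9 for CG10051 through 37.9 ± 27.3 for CG30043 and 37.6 ± 13.7 for CG30047 to 9.34 ± 4.44 for CG13160 and 6.60 ± 4.88 for CG30049 (mean ± SD, n = 3). CG10073 stood at 0.164 ± 0.12, although it starts 368 bases after CG10062 ends, and CG10081 was listed at 0 in all 3 libraries. The nearest tested neighbours outside the runs also ranged widely over all 30 libraries. CG11961 read 215 to 684, CG8839, left of the first run, 134 to 492, and CG11257, right of the second run, 1.53 to 4.48. CR46027, 44620 bases right of the first run, read 0 to 5.41. The plot of both runs in chromosomal order shows silent or nearly silent M28 genes beside strongly expressed ones.

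**Figure D1:**
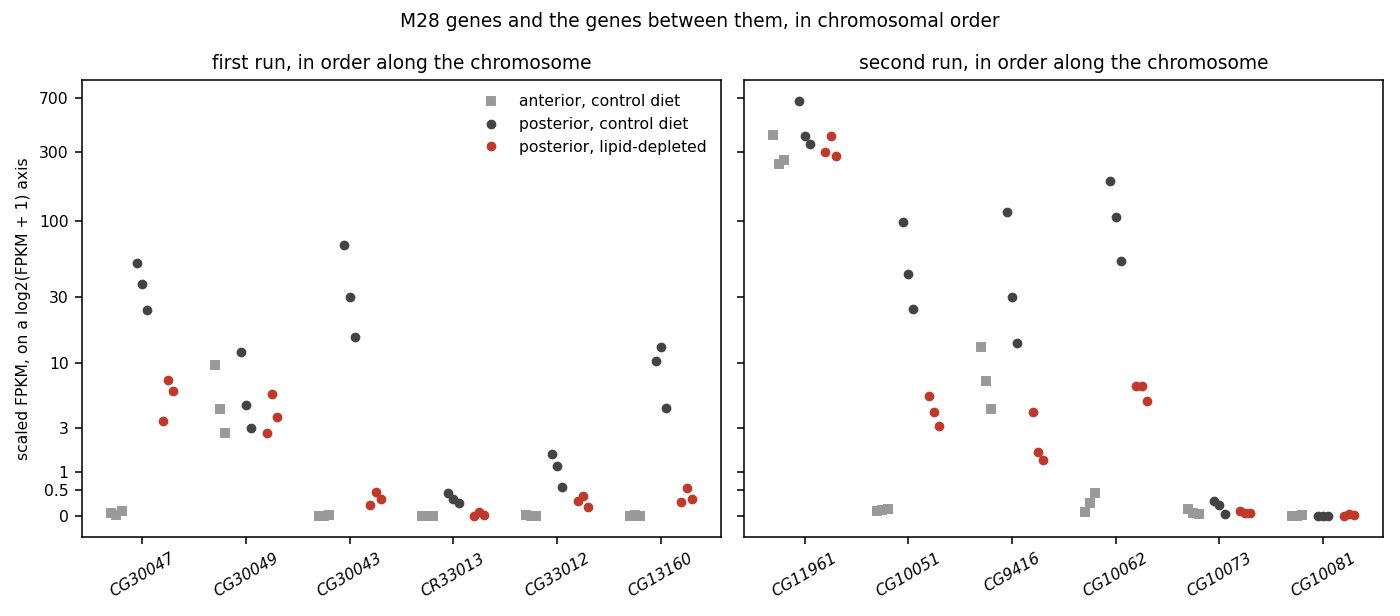
Scaled FPKM (vertical axis, log2(FPKM + 1) spacing) of each M28 gene and the genes between them, in order along the chromosome (horizontal axis), for the 3 libraries each of anterior control diet (grey squares), posterior control diet (black) and posterior lipid-depleted diet (red). CG10062 read 53.6 to 189 in the posterior control libraries and CG10073 beside it 0.0333 to 0.271.

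The level of 5 of the 8 genes differed between the regions. Posterior against anterior midgut was compared on the control diet to show where in the gut each gene is expressed. CG10051 read 99.3, 43.3 and 24.6 in posterior control replicates 1 to 3 and 0.0801, 0.0962 and 0.115 in the anterior ones. CG10062 read 189, 107 and 53.6 in the posterior libraries and 0.0615, 0.235 and 0.430 in the anterior. No anterior library came near the lowest posterior one for either gene. The log2 difference was 5.47 for CG10051 (SE 0.346, adjusted p = 1.06e-10) and 6.40 for CG10062 (SE 0.557, adjusted p = 1.15e-08).

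The first run showed the same side. CG30043 read 68.4, 29.9 and 15.5 in the posterior libraries and was listed at 0 in 2 of 3 anterior ones (log2 5.02, adjusted p = 3.83e-08). CG30047 read 51.6, 36.9 and 24.3 in the posterior libraries and 0.0181 to 0.0807 in the anterior (log2 5.14, adjusted p = 2.56e-07). CG13160 read 10.4, 13.2 and 4.47 in the posterior libraries and was listed at 0 in 2 of 3 anterior ones (log2 3.25, adjusted p = 0.000146). Of the 6 tested genes 5 were called higher in the posterior midgut, where 6.87% of all genes were. These 5 passed the filter on low values only through their posterior libraries, so the share itself says nothing about the family. All 5 were also free of overlap between the regions, as were 16.9% of all genes in this direction. Their calls held under every alternative that tested them, with adjusted p of at most 0.00564.

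CG30049 was the exception. It read 9.60, 4.37 and 2.66 in the anterior and 12.1, 4.71 and 2.96 in the posterior control libraries. The regions overlapped almost fully, with replicate 1 high in both (log2 0.17, SE 0.461, adjusted p = 0.880). Over all conditions it read 2.60 to 14.01 in 15 anterior libraries and 2.19 to 19.6 in 15 posterior ones, and no region comparison called it. It lies 257 bases from CG30047 and 348 from CG30043, both posterior.

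CG10073 and CG10081 were near the lower limit of detection in every group. CG10073 had an anterior range of 0 to 0.281 and a posterior range of 0.0275 to 0.405, and its lower confidence limit from the authors was 0 in 15 of 30 libraries. CG10081 was listed at 0 in 23 of 30 libraries, and its highest upper confidence limit was an FPKM of 0.162 before scaling. A change in either gene was not detectable at these levels.

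The posterior bias recurred in the other conditions, each compared between its own groups with a spread estimated from all 30 libraries. As on the control diet, the 5 genes passed the filter only through posterior libraries. The shares below therefore say nothing about the family. On the high-cholesterol diet CG10051 (log2 5.61), CG10062 (6.02), CG30043 (4.04), CG30047 (4.47) and CG13160 (1.64) were called higher, against 8.66% of all genes. In Hr96[1] the same 5 genes were called at log2 3.40, 4.09, 3.75, 4.49 and 2.39, against 5.95% of all genes, and in Hr96[2x] at log2 4.77, 5.14, 6.004, 6.60 and 3.19, against 8.37%. CG13160 on high cholesterol was the weakest of these calls (adjusted p = 0.0412), and without posterior high-cholesterol replicate 1 it stood at log2 0.59 with adjusted p = 0.387, in a range of 0.00161 to 0.387 over the alternatives. On the lipid-depleted diet the posterior excess was smaller, at 11.8-fold for CG10051 and 3.75-fold for CG10062 in the ratio of group means. There limma's threshold was passed by 2 of 6 genes, CG10051 and CG30047, against 5.41% of all genes called higher. Nothing is read from that count, since it uses libraries that the list was drawn up on.

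**Figure D2:**
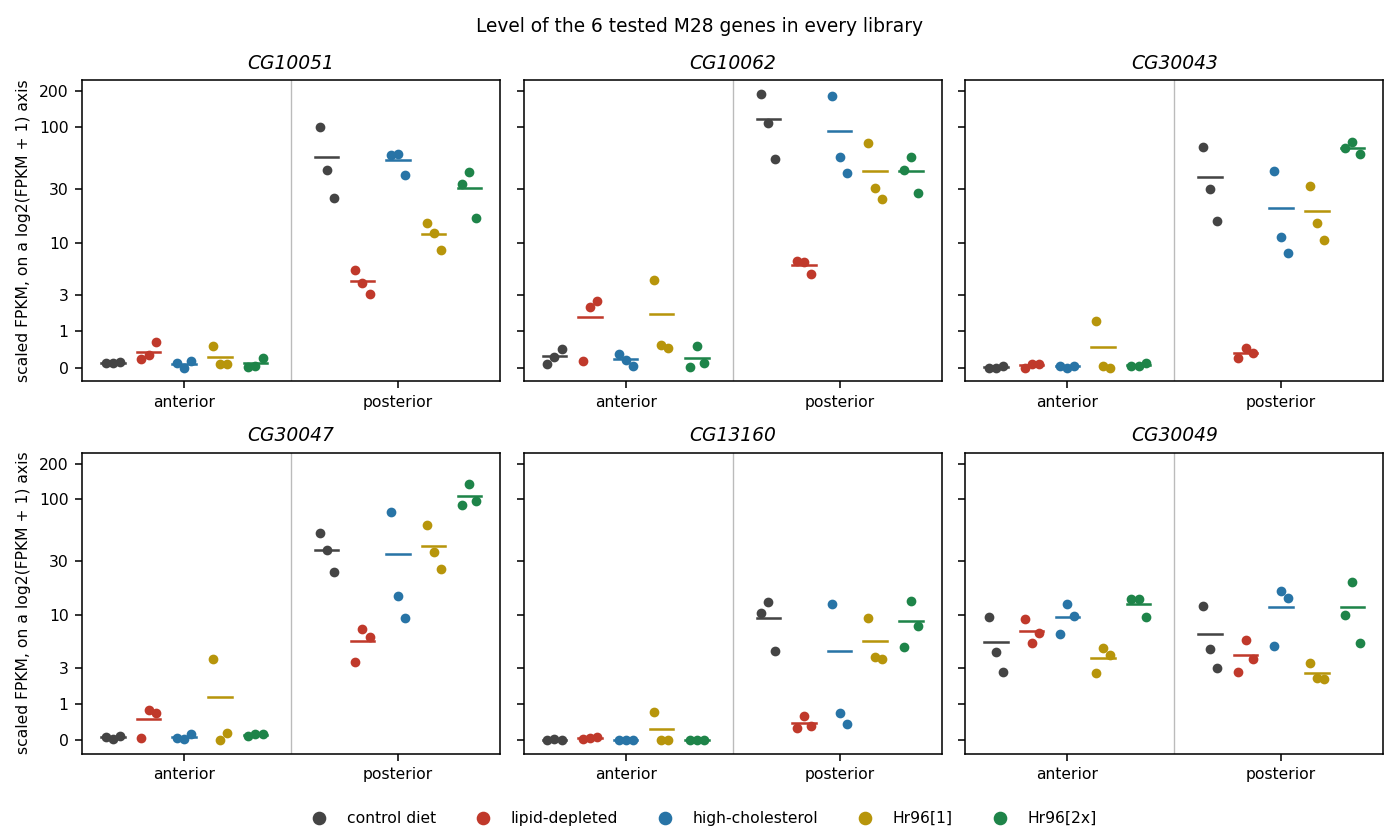
Scaled FPKM of the 6 tested M28 genes (vertical axis, log2(FPKM + 1) spacing) in all 30 libraries, by region and condition; each point is a library and each line the group mean. CG30049 lies between 2.19 and 19.6 throughout, while the other 5 genes lie near 0 in most anterior libraries.

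Low traces in the anterior midgut were uneven. In anterior Hr96[1] replicate 1, CG10062 read 4.35, CG30047 3.69, CG30043 1.45 and CG13160 0.708, against at most 0.548, 0.142, 0.0197 and 0 in replicates 2 and 3. In the same library the posterior protease gene Jon99Fi read 39.1 against 3.21 and 4.46, while the posterior trypsin gene iotaTry read 26.2 against 61.1 and 59.4. Its ovary and germline markers summed to 108 against 0.767 and 0.793. In anterior lipid-depleted replicates 2 and 3, CG10062 read 2.205 and 2.58 against 0.133 in replicate 1, and CG30047 0.788 and 0.669 against 0.0413. There iotaTry read 9.65 and 8.90 against 1.49, and Jon99Fi 0.470 and 0.819 against 0. The part of tissue from across the region border in these traces was not tested. In anterior Hr96[2x] libraries Jon99Fi read 11.7 to 124, and CG10062 read at most 0.499.

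Removing dietary lipid was tested by setting flies on the lipid-depleted diet against those on control food. In the posterior midgut CG30043 read 0.190, 0.457 and 0.321, against 68.4, 29.9 and 15.5 on the control diet. The highest lipid-depleted library lay far below the lowest control library, and the ratio of means was 117.5-fold. CG10062 read 6.73, 6.63 and 5.05 against 189, 107 and 53.6, a ratio of 19.0, and CG10051 read 5.53, 4.08 and 3.08 against 99.3, 43.3 and 24.6, a ratio of 13.2. CG13160 read 0.253, 0.569 and 0.311 against 10.4, 13.2 and 4.47, a ratio of 24.8. CG30047 read 3.42, 7.45 and 6.14 against 51.6, 36.9 and 24.3, a ratio of 6.63. None of these 5 genes overlapped between the diets, and 13.3% of all genes were lower without overlap. CG10062 and CG30047 were left at a mean of 6.14 and 5.67, and CG30043 at 0.323.

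On the log2 scale these differences were −4.64 for CG30043, −3.87 for CG10062, −3.24 for CG10051, −2.81 for CG13160 and −2.52 for CG30047, with −0.45 for CG30049. The 5 genes passed limma's threshold, where 2.44% of all genes were called lower, and nothing is read from that count since the list was drawn up with this comparison in view. CG30047 no longer passed without control replicate 1, at log2 −2.27, or with a pseudocount of 0.1, at log2 −2.71. CG30049 read 2.67, 5.78 and 3.72 against 12.1, 4.71 and 2.96, and its groups overlapped. Beside these values, the 4 enterocyte markers matched of 5 summed to 1350 to 1559 on the lipid-depleted diet against 1799 to 2137 on the control diet. None of them was at 0 in any library. Of these markers, nub read 82.4 to 122 against 102 to 105, with overlap, and Myo31DF 83.9 to 104 against 111 to 118. The 11 visceral muscle markers summed to 173 to 355 against 352 to 443, and the 7 stem cell and enteroblast markers to 66.6 to 96.3 against 31.0 to 70.9. The part of these differences in the M28 levels was not tested.

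In the anterior midgut the lipid-depleted diet gave no call among the 6 genes by limma, with 0 of 6 at an unadjusted p under 0.05, where 3.17% of all genes were called. All but CG30049 read at most 0.430 in anterior control libraries, so a fall in them could not have been seen. CG30049 read 9.24, 5.41 and 6.74 against 9.60, 4.37 and 2.66 on the control diet (log2 0.43). CG10051 was higher without overlap, at 0.185 to 0.620 against 0.0801 to 0.115, as were 9.84% of all genes, but it was not called (log2 0.30, SE 0.346). The difference in response between regions was log2 −3.53 for CG10051, −4.80 for CG10062 and −4.68 for CG30043. These 3 of 6 passed limma's threshold, where 0.576% of all genes did, and the same comparison chose the list.

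Adding sterol was tested by setting the high-cholesterol diet against control food. No M28 gene was called in either region by limma, with 0 of 6 in the anterior and 1 of 6 in the posterior midgut at an unadjusted p under 0.05; 3.52% and 0.876% of all genes were called there. The posterior libraries were uneven. CG10051 read 58.3, 58.9 and 39.4, within the control range of 24.6 to 99.3 (log2 0.11, SE 0.346, adjusted p = 1). CG13160 read 12.5 in replicate 1 and 0.675 and 0.345 in replicates 2 and 3, against 4.47 to 13.2 on the control diet (log2 −1.62, SE 0.55, adjusted p = 0.225). CG30043 read 42.2, 11.1 and 7.97 against 15.5 to 68.4 (log2 −0.97, adjusted p = 0.516), and CG30047 read 78.3, 14.8 and 9.41 against 24.3 to 51.6 (log2 −0.65, adjusted p = 0.890). In these 3 genes of the first run replicate 1 lay within or above the control range and replicates 2 and 3 lay below it. Replicate 1 also stood apart in Hr96, at 68.9 against 127 and 143, and in the summed enterocyte markers, at 2398 against 1614 and 1362. Of these markers, nub read 116, 109 and 120 in replicates 1 to 3 and Myo31DF 93.8, 99.96 and 83.9. Neither of them set replicate 1 apart. Without that library CG13160 (log2 −2.68, adjusted p = 0.000243) and CG30043 (log2 −1.65, adjusted p = 0.0376) were called lower. No region difference was called on this diet, against 0.024% of all genes, and 0 of 6 had an unadjusted p under 0.05.

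CG30049 went the other way in those libraries. It read 5.10 in posterior high-cholesterol replicate 1 and 16.3 and 14.2 in replicates 2 and 3, against 2.96 to 12.1 on the control diet (log2 0.81, SE 0.461, adjusted p = 0.657). In the anterior midgut it read 6.65, 12.6 and 9.73 against 2.66 to 9.60 (log2 0.81, adjusted p = 0.419). Neither difference exceeded the spread between replicates. Between the diets themselves, posterior CG10051 stood at 39.4 to 58.9 on high cholesterol and 3.08 to 5.53 on the lipid-depleted diet, and CG10062 at 40.6 to 182 and 5.05 to 6.73. The 2 diets did not overlap for either gene, and 15.5% of all genes were higher on high cholesterol without overlap.

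**Figure D3:**
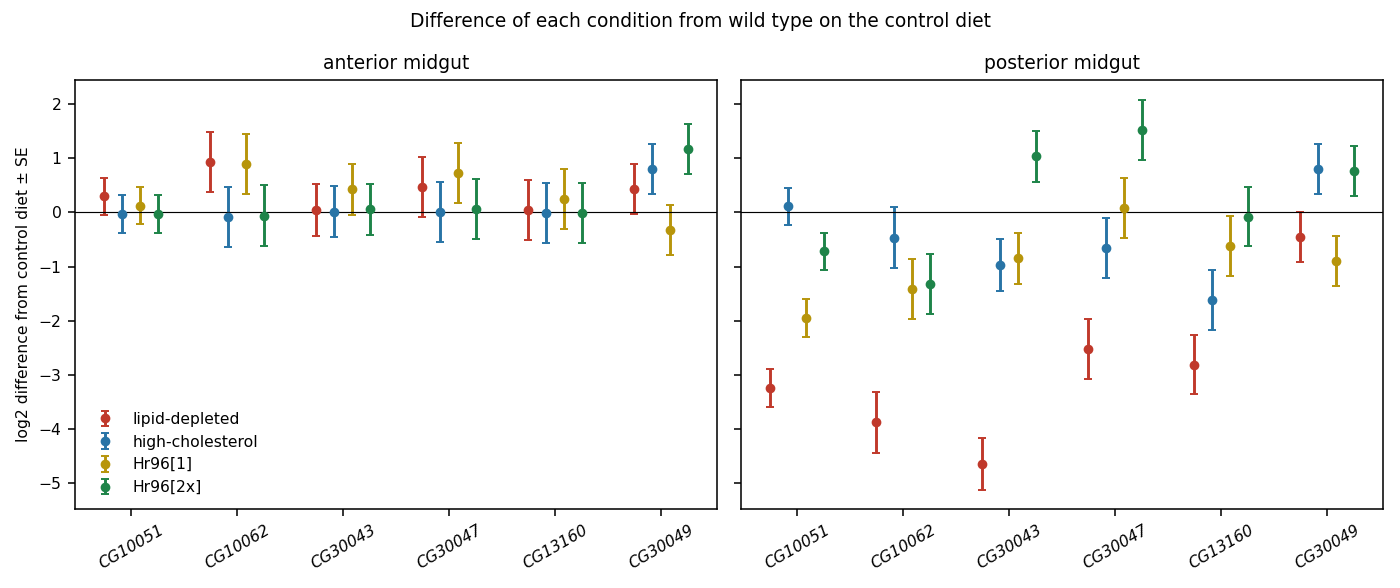
Log2 difference of each condition from y[1]w[1] on the control diet (points) with its standard error from limma (bars), for the 6 tested M28 genes in the anterior and the posterior midgut. The lipid-depleted diet gave −2.52 to −4.64 for 5 genes in the posterior midgut, and no anterior difference exceeded 1.17.

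Hr96[1] was compared with y[1]w[1] on the control diet to show what differs in that strain. In the posterior midgut CG10051 fell, reading 15.0, 12.1 and 8.54 against 99.3, 43.3 and 24.6. All 3 Hr96[1] libraries lay below the lowest control library, as did those of 15.5% of all genes (log2 −1.94, SE 0.346, adjusted p = 0.000542, a ratio of means of 4.69). The call was kept when each library was left out in turn and was lost when only the compared groups were fitted (adjusted p = 0.114), with a range of 3.85e-05 to 0.114 over the alternatives. It was the only call of 6, where 7.89% of all genes were called lower. CG10062 read 73.4, 30.6 and 24.4 against 53.6 to 189 and overlapped the control group (log2 −1.41, SE 0.557, adjusted p = 0.101). CG30043 (log2 −0.85, adjusted p = 0.261), CG13160 (−0.62, 0.507) and CG30049 (−0.89, 0.216) were not called.

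CG30047 stayed near its control level in Hr96[1], at 60.3, 36.0 and 25.7 against 51.6, 36.9 and 24.3 (log2 0.09, SE 0.552, adjusted p = 0.946). In the anterior midgut 0 of 6 genes were called by limma and 0 had an unadjusted p under 0.05, where 23.9% of all genes were called. All tested M28 genes but CG30049 read at most 0.430 in anterior control libraries, so a fall in them could not have been seen. The count therefore does not show that they were unaffected. CG10062 was higher there without overlap, at 0.464 to 4.35 against 0.0615 to 0.430, as were 20.3% of all genes (log2 0.90, adjusted p = 0.253). The difference of the CG10051 response between regions was log2 −2.07 (SE 0.49, adjusted p = 0.0577, against 0.408% of all genes called). Blocking on the replicate number, limma gave adjusted p = 0.0334, in a range of 0.00583 to 0.272 over the alternatives. Beside these values, the visceral muscle markers summed to 784 to 992 in posterior Hr96[1] and 352 to 443 in control, and the Malpighian tubule markers, 7 matched of 8, to 223 to 588 against 120 to 124. The part of either in the M28 levels was not tested.

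CG9416, which overlaps CG10051 and is of the same family, also fell in posterior Hr96[1]. It read 6.68, 5.41 and 3.62 there against 116, 29.7 and 14.01 in control (log2 −2.63, SE 0.543, adjusted p = 0.00209). On the lipid-depleted diet it fell in both regions, in the posterior midgut to 4.15, 1.73 and 1.40 (log2 −3.55, adjusted p = 0.000248) and in the anterior midgut to 0.753, 1.18 and 1.41 against 13.2, 7.32 and 4.33 (log2 −2.03, adjusted p = 0.0417). In anterior Hr96[2x] it rose to 30.1, 53.0 and 22.8 (log2 2.00, adjusted p = 0.0126), where CG10051 read at most 0.200. The other 3 tested M28 genes outside the list, CG11961, QC and isoQC, the last 2 being glutaminyl cyclase genes, gave no call on either diet. CG33012, under the filter, read 0.0474 to 2.44 in posterior libraries and was listed at 0 in 13 of 15 anterior ones.

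Hr96[2x] was compared with y[1]w[1] in the same way. No M28 gene was called by limma in the posterior midgut, where 11.2% of all genes were called and 4 of the 6 M28 genes had an unadjusted p under 0.05. Their differences had both signs. CG30047 read 89.1, 135 and 97.4, all above the control range of 24.3 to 51.6 (log2 1.53, SE 0.552, adjusted p = 0.0792), and 15.5% of all genes were higher without overlap. Its adjusted p ranged from 0.023 with a pseudocount of 5 to 0.326. CG30043 read 66.9, 74.1 and 58.8 against 15.5 to 68.4 (log2 1.04, adjusted p = 0.185; 0.0381 without control replicate 1, in a range up to 0.645). CG10062 read 43.6, 55.8 and 27.6 against 53.6 to 189 (log2 −1.32, adjusted p = 0.144), and CG10051 32.7, 41.9 and 16.7 against 24.6 to 99.3 (log2 −0.72, adjusted p = 0.213). CG13160 read 4.91, 13.5 and 7.85, within the control spread (log2 −0.07, adjusted p = 0.966). The enteroendocrine markers, 10 matched of 11, summed to 964 to 1296 in posterior Hr96[2x] and 200 to 360 in control, and their part in these levels was not tested. No region difference was called for this strain, against 0.36% of all genes, with 0 of 6 at an unadjusted p under 0.05.

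In anterior Hr96[2x] CG30049 read 14.01, 13.98 and 9.48 against 9.60, 4.37 and 2.66 (log2 1.17, SE 0.461, adjusted p = 0.0843). It was called without control replicate 1 (log2 1.59, adjusted p = 0.0323), in a range of 0.0176 to 0.333 over the alternatives. The other 5 tested genes read at most 0.499 there, and 0 of 6 were called against 18.4% of all genes, with 1 at an unadjusted p under 0.05. These 5 read at most 0.430 in anterior control libraries, so a fall in them could not have been seen.

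The strains were also compared with each other, which leaves the control libraries out. In the posterior midgut Hr96[2x] was higher than Hr96[1] for CG30043 (58.8 to 74.1 against 10.4 to 31.8, log2 1.88, SE 0.476, adjusted p = 0.0112). It was also higher for CG30049 (5.47 to 19.6 against 2.19 to 3.40, log2 1.66, adjusted p = 0.0211) and CG10051 (16.7 to 41.9 against 8.54 to 15.0, log2 1.22, adjusted p = 0.0239). These were 3 of 6 genes, where 5.29% of all genes were called higher and 13.1% were higher without overlap. CG30047 (log2 1.44, adjusted p = 0.0990) did not overlap either, and CG10062 differed by log2 0.09 (SE 0.557, adjusted p = 0.940). In the anterior midgut CG30049 was higher, at 9.48 to 14.01 against 2.60 to 4.85 (log2 1.48, adjusted p = 0.0435), where 4.21% of all genes were. Each of these 4 calls was lost in a fit of fewer libraries or on another scale: the highest adjusted p was 0.0986 for CG30043, 0.139 for posterior CG30049, 0.176 for CG10051 and 0.122 for anterior CG30049.

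The make-up of the family's transcripts in the posterior midgut shifted between conditions. The 8 genes summed to 431.5, 235.5 and 125.4 on the control diet, 378.5, 157.5 and 112.0 on high cholesterol, 247.5, 340.7 and 213.9 in Hr96[2x], 193.8, 100.3 and 75.0 in Hr96[1] and 18.9, 25.0 and 18.7 on the lipid-depleted diet. CG10062 held 42.7% to 45.5% of the sum in control libraries and 12.9% to 17.6% in Hr96[2x], whereas CG30047 held 12.0% to 19.4% and 36.0% to 45.5%. The sum of the first run stood at 0.493, 0.562 and 0.603 of the second run on the control diet and at 0.575, 0.375 and 0.399 on high cholesterol. It stood at 1.18, 1.34 and 1.28 in Hr96[1] and at 2.23, 2.47 and 3.82 in Hr96[2x]. All 6 Hr96-strain libraries thus held more transcript of the first run than of the second, and all 6 libraries of the control and high-cholesterol diets held less. On the lipid-depleted diet the ratio was 0.529 in replicate 1 and 1.32 and 1.28 in replicates 2 and 3. These sums were formed from the chosen genes and carry no test. In 14 of 15 anterior libraries CG30049 was the most abundant of the 8, and anterior Hr96[1] replicate 1, led by CG10062, was the exception.

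**Figure D4:**
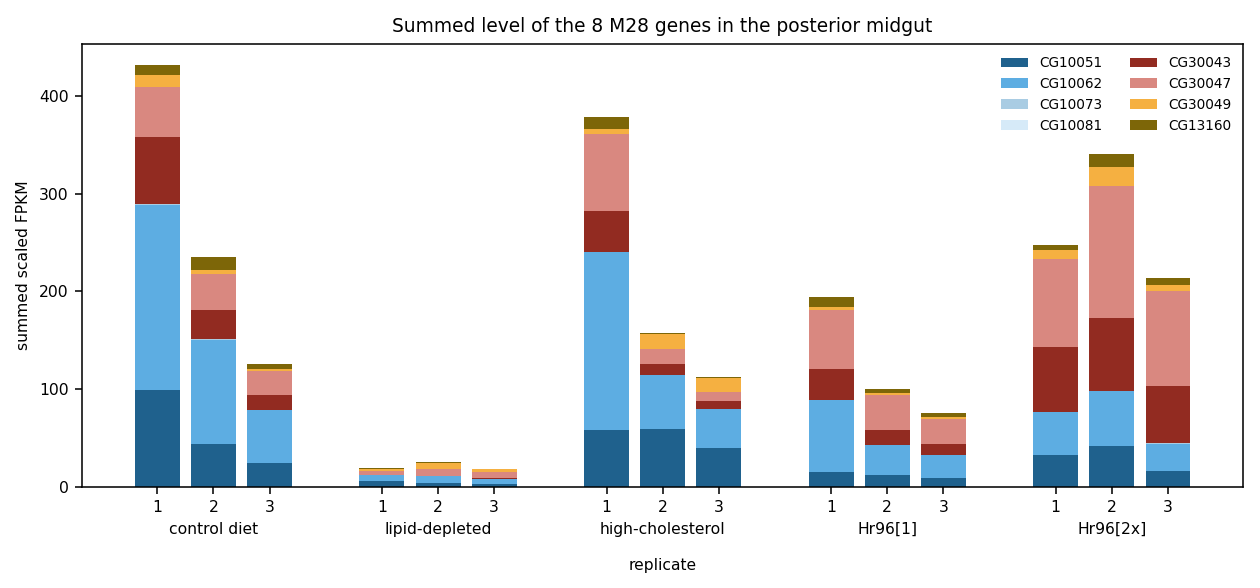
Summed scaled FPKM of the 8 M28 genes (vertical axis) in each posterior library (horizontal axis, by condition and replicate), with each gene as a segment; blue segments are genes of the second run and red, orange and brown ones genes of the first. The sums are 18.7 to 25.0 on the lipid-depleted diet and 125.4 to 431.5 on the control diet, and CG30047 is the largest segment in all 3 Hr96[2x] libraries.

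Across the 10 group means the 5 posterior genes followed each other, with Pearson's r between 0.895 and 0.986, while r between CG30049 and each of them was −0.07 to 0.06. These points share the regional difference, so the values describe the pattern and carry no test. Over the 15 posterior libraries alone r was 0.550 to 0.946 among the 5 genes, and CG30049 had r of 0.649 with CG10051, 0.376 with CG30043, 0.351 with CG10062, 0.252 with CG30047 and 0.0522 with CG13160. These points share their libraries and also carry no test. Among all other tested genes those most like CG10051 were CDase, which encodes neutral ceramidase (r = 0.988), the trypsin gene etaTry (0.988) and CG32284 (0.982). Those most like CG30047 were CG31266 (0.992), the amino acid transporter gene NAAT1 (0.989) and CG31269 (0.988). CG10062 was matched by CG32284 (0.994), CG33655 (0.986) and CG15887 (0.983), and CG30043 by wntD, a Wnt family gene (0.994), CG13607 (0.984) and CG10116 (0.981). For CG13160 they were wntD (0.979), CG10116 (0.966) and CG6592 (0.966). For CG30049 they were CG7168 (0.963), CG4783 (0.940) and CkIIalpha-i3 (0.917).

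Genes at other steps of protein digestion were counted in the same comparisons. The M1 aminopeptidases are another zinc family that removes amino acids from the front of peptides. Of 18 matched, 9 passed the filter on low values and were tested. Of these 9, 7 were posterior on the control diet and 0 anterior. On the lipid-depleted diet 6 fell in the posterior midgut and 4 in the anterior one, with 0 rises in either. Of all tested genes 6.87% were called higher in the posterior midgut and 7.79% in the anterior on the control diet. On the lipid-depleted diet 2.44% fell and 1.39% rose in the posterior midgut, and 1.51% fell and 1.66% rose in the anterior. How far the filter on low values favoured genes high in a single region was not tested for this list. CG8774 was the clearest, at log2 5.20 between regions (adjusted p = 3.86e-10) and −3.17 on the lipid-depleted diet in the posterior midgut (SE 0.365, adjusted p = 7.47e-06). In anterior tissue CG31233 fell (log2 −3.40, SE 0.35, adjusted p = 4.33e-06). The median of the 9 on the lipid-depleted diet was log2 −1.47 in the posterior midgut, against −0.02 over all tested genes.

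The shares of all genes given for the M1 list, and the limit from the filter, apply to the following lists as well. Of 11 tested M14 zinc carboxypeptidases (18 matched), which trim the other end of the peptide, 5 were higher in the posterior midgut and 0 in the anterior. On the lipid-depleted diet 2 fell in the posterior midgut, CG32379 (log2 −4.22, adjusted p = 2.92e-06) and CG14820 (−2.16, 0.0123). In the anterior midgut CG18585 rose (log2 1.99, adjusted p = 0.0219 by limma) and CG18417 fell (−1.33, 0.0462). Of 7 tested M17 and M20 exopeptidases 2 were higher in the posterior midgut and none was called on the lipid-depleted diet there, while CG6465 fell in the anterior midgut (log2 −1.26, adjusted p = 0.0403). Of 12 peptide and amino acid transporters 2 rose and 3 fell in the posterior midgut on that diet, among them NAAT1 (log2 −3.37, adjusted p = 0.000333) and slif (−2.05, 0.00446). In the anterior midgut CG8785 fell on it (log2 −1.34, adjusted p = 0.00861 by limma). Of 19 serine endopeptidases 1 rose in the posterior midgut, epsilonTry (log2 2.97, adjusted p = 0.00573), and 3 fell, zetaTry the most clearly (−3.98, 2.30e-05). epsilonTry is an anterior gene, at 4890 to 7961 in anterior control libraries. In the posterior it read 16.8, 77.9 and 62.5 against 2.62, 5.99 and 6.33 in control. The part of tissue from across the region border in this rise was not tested. In the anterior midgut iotaTry (log2 2.14, adjusted p = 0.00861 by limma) and lambdaTry (1.45, 0.0318) rose on that diet. On the high-cholesterol diet 0 genes of these 5 lists were called in the posterior midgut by limma, where 0.876% of all genes were. In the anterior midgut, where 3.52% of all genes were called, each list held a call by limma. Higher were CG10602 of the M1 list (log2 0.98, adjusted p = 0.0086), Dip-B (0.83, 0.0450), CG4991 (1.96, 0.00749) and Jon25Biii (3.94, 0.0478). Lower were Psa of the M1 list (−0.94, 0.0176) and CG14820 (−1.86, 0.0377).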

How the data were processed

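Reads of 30 poly(A) libraries were processed by the authors with bcl2fastq 2.17.1.14, TopHat2 2.1.1, Bowtie2 2.2.9 and Cufflinks 2.2.1, on dm6 with BDGP6 genes, per the submitters' processing notes. The deposited values are gene FPKM with confidence limits, as the file headers name them, with 1 table for each library. How reads with several matching places were assigned is unknown here, and this could move levels between paralogs.

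From these FPKM, 103 genes with a failed estimate in any library were dropped. Each library was scaled by its median ratio over 8584 genes (0.537 to 1.20 anterior, 1.03 to 1.45 posterior). After a pseudocount of 1 and log2, the 8335 genes with a mean of at least 1 were fitted with limma 3.58.1 (R 4.3.3), trend in the prior variance, 10 group means and 20 residual degrees of freedom; tests were 2-sided. Tables and figures used Python 3.11.15, pandas 2.3.3 and matplotlib 3.10.9. All adjusted p-values are limma's with Benjamini-Hochberg adjustment over all tested genes. An exact permutation test of 3 against 3 libraries cannot go below 0.1. On simulated data for the posterior high-cholesterol comparison (8335 genes, 200 changed, 5 draws) limma recovered 67.8% of log2 1 and 89.6% of log2 2 changes. The changed genes were drawn at random from all tested genes, so these rates are not those of the M28 genes. Recovery at the spread of the M28 genes, with standard errors of 0.346 to 0.557 between 2 groups, was not simulated.

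The members, gene lists and tests were chosen with earlier results of these data known. All comparisons with the control diet share its libraries, so they are not independent of each other. Named outside the 8 genes were, by rule, the 3 genes most like each in group means and the nearest tested gene on each side of a run. A run joins members within 20 kb of each other. Of each list at most 2 genes were named, those of smallest adjusted p by limma. CG33012, CR33013, Hr96, Jon99Fi and iotaTry were added after values were seen. Same-numbered samples deviated together (each r above 0.1) between the regions on the lipid-depleted diet, in Hr96[1] and in Hr96[2x], and between the strains in the anterior midgut; the replicate block was run as an alternative. Alternatives were FPKM as deposited, quantile normalization, pseudocounts of 0.1 and 5, no filter and a minimum of 5, only the compared groups, the replicate block, each library left out and, chosen after seeing the data, both control replicate 1 libraries left out.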

Additional observations from a re-analysis of the deposited data

Results flagged for a closer look

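Responses that differed between the regions, by the interaction term of limma, were flagged in 4 cases. On the lipid-depleted diet the posterior response minus the anterior one was log2 −3.53 for CG10051, −4.80 for CG10062 and −4.68 for CG30043. These 3 values use the comparison that the list was drawn up on and are given as a description. In anterior libraries all 3 genes read at most 2.58 on that diet and at most 0.430 on the control diet, so a fall of the posterior size could not have been seen there.

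In Hr96[1] the response of CG9416, the M28 gene that overlaps CG10051, differed between regions by log2 −3.47 (SE 0.768, adjusted p = 0.0426 by limma). It read 6.72, 20.8 and 20.3 in anterior Hr96[1] against 13.2, 7.32 and 4.33 in control, and 6.68, 5.41 and 3.62 in posterior Hr96[1] against 116, 29.7 and 14.01. Anterior replicate 1 of Hr96[1] lay within the control range and replicates 2 and 3 above it.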

How the results depend on the processing

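The 5 posterior genes kept their calls between regions on the control diet, in Hr96[1] and in Hr96[2x] under every alternative that tested them, and 0 called values of any of the 6 tested genes changed sign. Of 39 called values 10 lost the call under at least 1 alternative, and of 87 uncalled values 14 gained it. The number of M28 genes called moved as follows. For Hr96[1] in the posterior midgut it was 1, then 2 with a pseudocount of 5 and 0 when only the compared groups were fitted, and 1 to 2 with each library left out. For Hr96[2x] in the posterior midgut it was 0, then 1 with a pseudocount of 5, with only the compared groups, and without both control replicate 1 libraries, and 0 to 1 with each library left out; in the anterior midgut it was 0, then 1 without both control replicate 1 libraries, and 0 to 1. For posterior against anterior on the lipid-depleted diet it was 2, then 0 with a pseudocount of 5, and 1 to 2. For the region difference on the lipid-depleted diet it was 3, then 5 with only the compared groups. Both lipid-depleted counts use libraries that the list was drawn up on and are a description only. For the region difference in Hr96[1] it was 0, then 1 on FPKM as deposited, 1 after quantile normalization and 1 with the replicate block (CG10051), and 0 to 1 with each library left out. Leaving out posterior high-cholesterol replicate 1 gave the upper end of 0 to 2 for that diet in the posterior midgut and of 0 to 1 for its region difference.

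The replicate block added CG10062 between regions on the lipid-depleted diet and CG10051 for the region difference in Hr96[1], and it changed no other call of the 6 genes where the numbers pair the samples. FPKM as deposited moved the median of all genes between regions by log2 0.35 on the control diet to 0.65 in Hr96[2x], and the posterior genes stood above it. On that scale 4521 of 4839 called genes were higher in posterior Hr96[2x], against 698 of 1579; in anterior midgut 236 of 2351 were higher in Hr96[2x], against 718 of 1532, and 78 of 1120 on high cholesterol, against 187 of 293. Fitting only the compared groups lowered the calls over all genes, for example from 1077 to 331 for posterior Hr96[1] and from 319 to 185 for the posterior lipid-depleted diet. Precision is limited by 3 libraries per group and, for CG10073 and CG10081, by levels near 0.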
